A study of Mus musculus with 5 samples.

Results

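The genes described here encode mouse potassium channels and their auxiliary subunits, taken as every gene whose symbol is Kcn, then letters, then a number, with a mean of at least 10 normalized counts over the 5 libraries. Of 92 such symbols among the 54532 genes of the table, 73 met that mean and 19 did not, of which 4 had no read in any library. The libraries are RNA sequencing of neurospheres, floating clusters of neural progenitors and their progeny grown in B27, FGF-2 and EGF (20 ng/ml each) from the hippocampus of newborn (P0) C57BL/6 mice. All carry hGFAP-Cre, a recombinase driven by the human GFAP promoter, which is active in radial glia and other neural progenitors. The 2 control libraries are hGFAPCre+, Arid1b+/+ littermates and the 3 heterozygous libraries are hGFAPCre+, Arid1b flox/+, so 1 Arid1b copy can be deleted where Cre acts. No library without Cre was analysed here. Whether the libraries are separate mice is not in the labels. All p-values here therefore rest on library-to-library spread, part of which may be technical.

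Potassium channels let potassium leave or enter the cell along its gradient and so set the resting potential and end action potentials. Voltage-gated channels are tetramers of pore subunits that open on depolarization, and auxiliary subunits change their gating and transport to the membrane. Inward rectifiers and two-pore domain channels conduct near rest, and calcium-activated channels couple calcium entry to repolarization. In brain, glia hold large inward rectifier currents that take up potassium, while neurons use a wide range of voltage-gated subunits. The comparison asks which of these genes differ when 1 copy of Arid1b, a subunit gene of the BAF chromatin-remodelling complex, is targeted.

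Depth ran from 19833803 to 25494722 recovered reads per library. Arid1b was at 1510 and 1730 normalized counts in controls, and at 1102, 1145 and 1003 in heterozygous libraries (limma adjusted p = 0.0701). The 19 neural progenitor markers checked, among them Nes, Sox2 and Pax6, all met the mean of 10. So did all 20 neuron, 15 astrocyte and 15 oligodendrocyte lineage markers checked, so meeting it does not identify the cell type. The controls correlated less with each other across genes (0.952) than the heterozygous libraries did (0.988 to 0.989), and control replicate 1 stood farthest from the rest. Heterozygous replicate 2 had 36851 Xist reads and no read of the Y-linked Ddx3y, unlike the other 4 libraries. Of those, heterozygous replicate 3 had 301 Xist reads beside 1228 Ddx3y reads, and the rest had 1 to 16 Xist reads. Among the 73 genes the controls differed by more than 2-fold for 19.

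Of the 73 potassium channel genes, 4 rose, 2 fell and 67 did not pass in heterozygous neurospheres. Those that rose included Kcna1 and Kcna4, which form voltage-gated pores and were 3.09-fold and 2.96-fold higher, and Kcng4, a modifier subunit, which was 5.92-fold higher. The 2 that fell were Kcnab3 and Kcnip3, both auxiliary subunits of voltage-gated channels. The test was limma on log2(normalized count + 1) over 16411 genes, with p-values adjusted by Benjamini-Hochberg and called under 0.05. The share called was 8.22% of the family, against 2.84% of all genes tested (1.9% higher and 0.944% lower). On the recovered reads, edgeR called 3 members higher and 2 lower, against 1.46% and 1.03% of all genes. DESeq2 called 15 higher and 5 lower on the same reads, against 7.3% and 7.15% of all genes. Without control replicate 1 limma called 13 members higher and 4 lower, against 9.21% and 7.62% of all genes. With control replicate 2 left out instead it called 31 and 10, against 27.2% and 23.5% of all genes, so calls rose across the whole table. Leaving out any 1 heterozygous library left no member called, with 21 members, 21 and 25 at an unadjusted p under 0.05 without replicates 1, 2 and 3, against 14.4%, 15.8% and 16.3% of all genes.

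The groups did not overlap for 41 of the 73 genes, 31 of them higher and 10 lower in heterozygous libraries. Among all genes tested 46.7% did not overlap, 23.4% higher and 23.3% lower, so the family's share was 42.5% higher and 13.7% lower. Its median log2 fold change was 0.47, beside 0.01 over all genes tested. Leaving out control replicate 1 or 2 gave a median of 0.24 or 0.56. At the mean of 10, the lowest genes inside were Kcnh8 (mean 13.6), Kcnj12 (14.96) and Kcng3 (15.3), and the highest outside were Kcns3 (8.73), Kcne4 (6.40) and Kcna7 (5.89). All 4 Kcne genes, single-span subunits of Kcnq and Kcnh channels, were among those outside. So was Kcnq1, with no read in either control and 5.32, 2.67 and 3.90 normalized counts in heterozygous libraries.

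**Figure D1:**
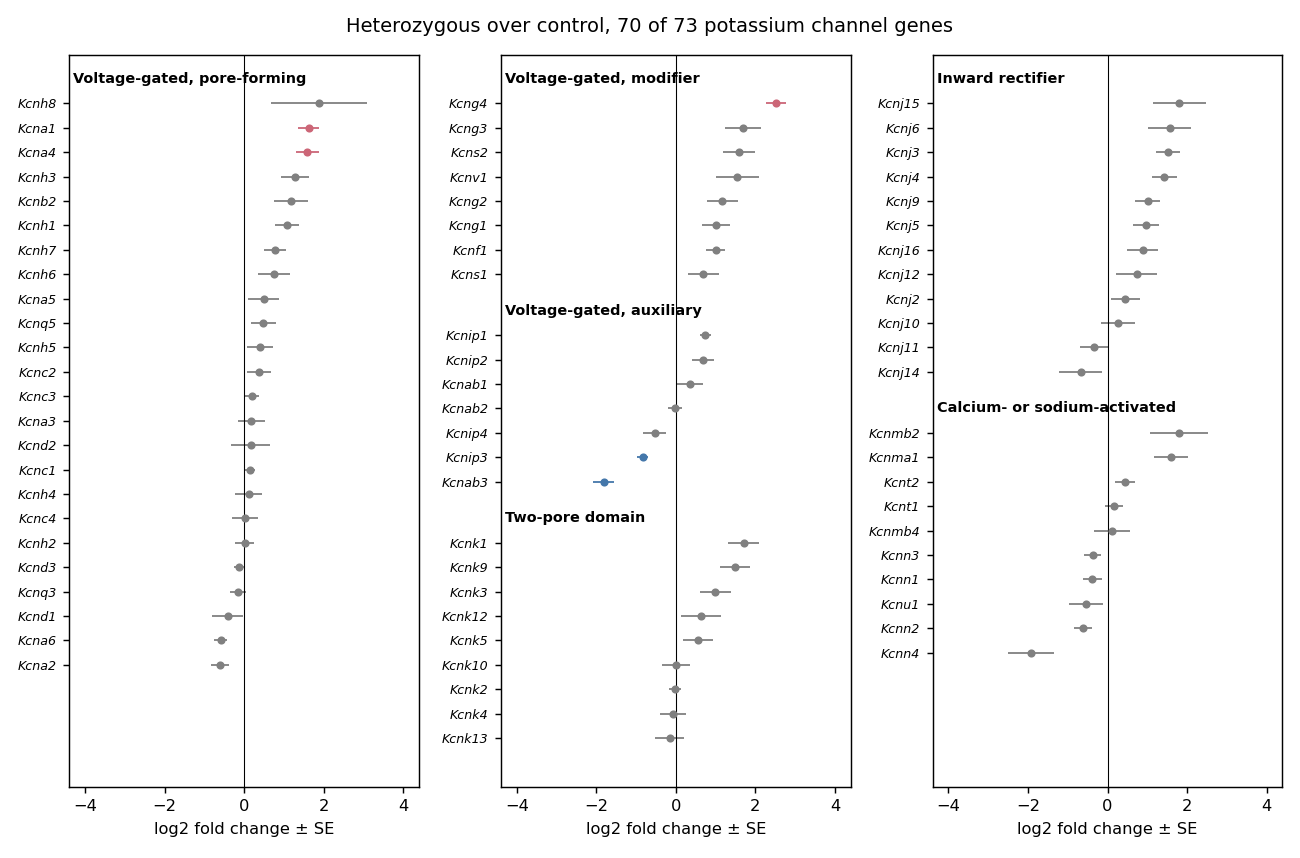
Each point is the log2 fold change of a gene, heterozygous over control, from limma, with a bar of 1 SE on either side, grouped by subfamily. Red points rose, blue points fell and grey points did not pass; all 8 modifier subunits and none of the 4 Kcnn genes lie right of 0.

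Voltage-gated pore subunits were mixed: of 27 measured, 3 rose, none fell and 24 did not pass, with a median log2 fold change of 0.36. That median was 0.15 when control replicate 1 was left out and 0.19 over genes with a mean of at least 50. The groups did not overlap for 8 higher and 3 lower, 40.7% of the class, against 46.7% of all genes tested. Calls over all genes tested were 1.9% higher and 0.944% lower. Kcna1 and Kcna4 encode pore subunits of the Shaker family, found mainly on axons. Kcna1 (ENSMUSG00000047976, chromosome 6 from 126640397 to 126646384, - strand) had 108 and 77.6 normalized counts in controls and 294, 344 and 225 in heterozygous libraries. The groups did not overlap and the log2 fold change was 1.62 (SE 0.27, limma adjusted p = 0.0427). Kcna4 (ENSMUSG00000042604, chromosome 2 from 107290639 to 107298502, + strand) had 34.9 and 58.7 in controls and 152, 138 and 126 in heterozygous libraries. Its log2 fold change was 1.59 (SE 0.29, limma adjusted p = 0.0491), a call close to the threshold that edgeR did not make (adjusted p = 0.0550).

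Other Shaker genes went differently. Kcna2, the most abundant Shaker gene here, had 9327 and 6036 normalized counts in controls and 5263, 5299 and 4213 in heterozygous libraries. Its groups did not overlap, but its log2 fold change of -0.62 (SE 0.22) did not pass (limma adjusted p = 0.148), and leaving out control replicate 1 or 2 gave -0.30 or -0.93. Kcna6 had 820 and 759 in controls and 446, 554 and 574 in heterozygous libraries, a log2 fold change of -0.60 that also did not pass (limma adjusted p = 0.0962). Kcna6 shares 39.6% of its exon bases with Gm26673, a gene on the opposite strand, and the counting is not stated to use strand.

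The most abundant voltage-gated pore genes per length of exon differed little. Kcnc1, a Shaw family subunit used by fast-spiking neurons, had 11206 and 12665 normalized counts in controls and 12345, 13882 and 13226 in heterozygous libraries (log2 fold change 0.14, SE 0.14, limma adjusted p = 0.536). Kcnd3, which carries A-type current, had 5321 and 5862 in controls and 4959, 5481 and 4833 in heterozygous libraries (log2 fold change -0.14, SE 0.13, limma adjusted p = 0.520). For both the groups overlapped. None of the 4 Kcnc and 3 Kcnd genes had groups that did not overlap, against 46.7% of all genes tested.

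The ether-à-go-go family, Kcnh1 to Kcnh8, had positive log2 fold changes for all 8 members, from 0.01 to 1.87, and none passed. Kcnh3 had 27.9 and 49.7 normalized counts in controls and 118, 85.5 and 77.0 in heterozygous libraries (log2 fold change 1.28, limma adjusted p = 0.0937). Kcnh1 had 39.6 and 47.0 against 108, 106 and 69.2 (log2 fold change 1.08, limma adjusted p = 0.0959). Kcnh8, at 1.87, had no read in control replicate 1 and 19.9 normalized counts in control replicate 2, just above the heterozygous range of 11.6 to 19.2. Without control replicate 1, Kcnh2 and Kcnh8 were at -0.30 and -0.32. Kcnb2, which forms delayed rectifiers, was at 54.7 and 56.0 in controls and 208, 124 and 77.9 in heterozygous libraries (log2 fold change 1.17, limma adjusted p = 0.148). For Kcnh1, Kcnh3 and Kcnb2 every heterozygous library was above both controls, a condition of the rule by which they were named.

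The modifier subunits are silent alone and change the gating of Kcnb pores when they assemble with them. All 8 measured had groups that did not overlap, higher in heterozygous libraries, against 23.4% of all genes tested. Of the 8, 1 rose, against 1.9% of all genes tested. Their median log2 fold change was 1.35, with single genes from 0.69 to 2.52. Kcng4 (ENSMUSG00000045246, chromosome 8 from 119623854 to 119635680, - strand) had 23.3 and 28.9 normalized counts in controls and 166, 161 and 136 in heterozygous libraries. Control libraries averaged 26.1 ± 3.97 (SD, n = 2) and heterozygous ones 155 ± 15.9 (SD, n = 3). The groups lay far apart, and limma put the log2 fold change at 2.52 (SE 0.25, adjusted p = 0.0258).

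Kcnf1, the most abundant modifier gene per length, had 172 and 281 normalized counts in controls and 414, 450 and 459 in heterozygous libraries (log2 fold change 0.999, SE 0.24, limma adjusted p = 0.0714). Kcns2 had 10.5 and 12.6 against 53.2, 31.2 and 29.2 (log2 fold change 1.58, limma adjusted p = 0.0787). Kcng3 had 4.65 and 7.22 against 16.0, 29.4 and 19.5 (log2 fold change 1.69, limma adjusted p = 0.0879). These are low counts, for which fold changes on the log2(value + 1) scale depend on the added 1. Kcng1, Kcng2 and Kcnv1 had log2 fold changes of 1.01, 1.17 and 1.54 (limma adjusted p = 0.137, 0.128 and 0.144). For Kcng1 leaving out control replicate 1 or 2 gave 0.58 or 1.45, and for Kcnf1 it gave 0.65 or 1.35. Kcnv1 was at 39.6 in control replicate 1 and 156 in control replicate 2, and leaving out control replicate 1 or 2 gave log2 fold changes of 0.56 or 2.52.

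**Figure D2:**
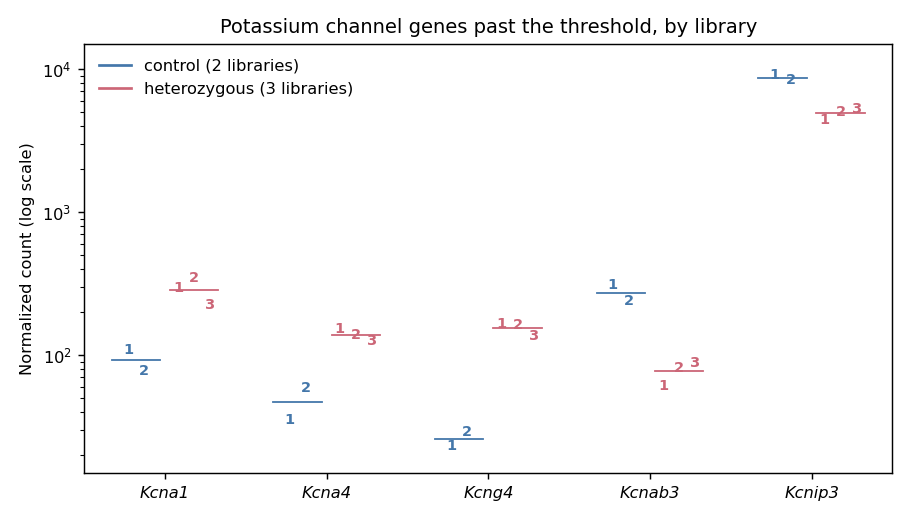
Normalized counts (log axis) of genes past the threshold in each library, the digit giving the replicate number and the line the group mean. In each gene the 3 heterozygous libraries lie wholly on one side of the 2 controls, higher for Kcna1, Kcna4 and Kcng4 and lower for Kcnab3 and Kcnip3.

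Auxiliary subunits of voltage-gated channels held both genes that fell: of 7 measured, none rose and 5 did not pass. Over all genes tested 0.944% fell. The median log2 fold change of the 7 was -0.03, and 0.0751 without heterozygous replicate 3. Kcnab3 (ENSMUSG00000018470, chromosome 11 from 69326258 to 69333042, + strand) encodes a cytoplasmic beta subunit of Shaker channels. It had 307 and 239 normalized counts in controls and 60.7, 81.9 and 88.6 in heterozygous libraries. Control libraries averaged 273 ± 48.0 (SD, n = 2) and heterozygous ones 77.1 ± 14.6 (SD, n = 3). By limma the log2 fold change was -1.82 (SE 0.26, adjusted p = 0.0364). The other beta subunit genes did not pass: Kcnab2 was at -0.03 and Kcnab1 at 0.35, both with overlapping groups. Kcnab3 shares 147 exon bases with the antisense gene Kcnab3os.

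Kcnip3 (ENSMUSG00000079056, chromosome 2 from 127456498 to 127522094, - strand) encodes a calcium-binding subunit of A-type channels that is also known as a transcriptional repressor, DREAM. It had 9082 and 8336 normalized counts in controls and 4430, 5024 and 5257 in heterozygous libraries. Control libraries averaged 8709 ± 528 (SD, n = 2) and heterozygous ones 4904 ± 426 (SD, n = 3). By limma the log2 fold change was -0.83 (SE 0.13, adjusted p = 0.0424). Kcnip1, a relative with the same pore partners, had 432 and 479 in controls and 742, 739 and 795 in heterozygous libraries. Its log2 fold change of 0.74 (SE 0.14) did not pass (limma adjusted p = 0.0510), although the groups did not overlap. Kcnip2 had 233 and 132 in controls and 284, 315 and 252 in heterozygous libraries, and Kcnip4 had 59.3 and 57.8 against 42.6, 47.2 and 32.1. For Kcnip2 leaving out control replicate 1 or 2 moved the log2 fold change from 0.69 to 1.095 or 0.28. Neither passed (limma adjusted p = 0.184 and 0.295), so of 4 Kcnip genes, all with groups that did not overlap, 2 were higher and 2 lower. Over all genes tested 46.7% did not overlap.

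RefSeq windows of 250 bases before to 50 bases after a transcription start (GRCm38.p6, the assembly of mm10) were matched by symbol for 52 of the 73 genes, 74 windows in all, and for 3 of the 6 called genes. Shown are the windows of 2 genes that rose and of 1 that fell, the fall being Kcnip3 at the start farthest upstream of its 3. Capitals mark CAGCTG, an E-box that neurogenic transcription factors can bind and that reads the same on both strands.
Kcng4 (chr8:119635631-119635930, - strand): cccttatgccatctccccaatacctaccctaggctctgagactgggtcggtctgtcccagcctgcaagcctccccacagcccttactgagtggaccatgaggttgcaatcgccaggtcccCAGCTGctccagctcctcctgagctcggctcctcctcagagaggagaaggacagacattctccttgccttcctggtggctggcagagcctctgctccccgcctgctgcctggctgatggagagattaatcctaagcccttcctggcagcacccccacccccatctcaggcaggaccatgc
Kcna4 (chr2:107290339-107290638, + strand): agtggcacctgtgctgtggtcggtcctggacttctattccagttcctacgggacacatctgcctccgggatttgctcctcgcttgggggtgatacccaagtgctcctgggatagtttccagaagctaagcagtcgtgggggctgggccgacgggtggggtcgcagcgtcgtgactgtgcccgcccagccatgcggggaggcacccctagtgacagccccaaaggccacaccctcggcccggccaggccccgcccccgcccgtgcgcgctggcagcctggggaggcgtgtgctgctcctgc
Kcnip3 (chr2:127522045-127522344, - strand): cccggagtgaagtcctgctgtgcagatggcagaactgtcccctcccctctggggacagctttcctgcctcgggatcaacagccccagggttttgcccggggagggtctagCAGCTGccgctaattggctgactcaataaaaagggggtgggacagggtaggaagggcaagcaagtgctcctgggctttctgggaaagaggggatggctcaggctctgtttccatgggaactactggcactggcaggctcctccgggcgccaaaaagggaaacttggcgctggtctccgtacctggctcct
The E-box was in the Kcng4 and Kcnip3 windows shown and not in that of Kcna4. The other Kcnip3 windows, not shown, did not hold the E-box. Among member windows the E-box was in 20 of the 74 (27%), and it was in 16.3% of all 32851 windows. ACGTG, the core that hypoxia-inducible factors bind, read on both strands, was in 11 member windows (14.9%) and in 19.6% of all windows. TTCAGCACC, the first part of the element bound by the neuronal repressor REST, read on both strands, was in 1 member window, of Kcnh6, and in 0.371% of all. The letters of these motifs do not overlap in the windows shown, and a match is a description of the letters, not a site.

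Inward rectifiers were higher in 10 of 12 genes by fold change, with a median of 0.92, and none passed. The groups did not overlap for 7 (58.3%), all higher, against 23.4% of all genes tested on that side. Kcnj10, the main potassium uptake channel of astrocytes and oligodendrocyte lineage cells, was the most abundant potassium channel gene per length of exon. It had 5207 and 14879 normalized counts in controls and 10708, 12433 and 8800 in heterozygous libraries, so the controls lay on either side of all 3. Its log2 fold change was 0.26 (SE 0.42, limma adjusted p = 0.716). Leaving out control replicate 1 turned it to -0.50, and leaving out control replicate 2 gave 1.02. Kcnj16, which assembles with Kcnj10, had 726 and 2033 in controls and 2400, 2237 and 2098 in heterozygous libraries (log2 fold change 0.88, limma adjusted p = 0.217), with 0.14 or 1.62 when control replicate 1 or 2 was left out.

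The further inward rectifier genes given here were mostly named for higher groups without overlap. The rest of the class had overlapping groups and did not pass. These were Kcnj2 (log2 fold change 0.45), Kcnj12 (0.73), Kcnj11 (-0.33) and Kcnj14 (-0.68). Kcnj3, Kcnj6 and Kcnj9 encode subunits opened by G proteins downstream of inhibitory receptors. Kcnj3 had 43.1 and 37.0 normalized counts in controls and 148, 118 and 90.6 in heterozygous libraries (log2 fold change 1.52, SE 0.29, limma adjusted p = 0.0520). Kcnj9 had 32.6 and 47.0 against 94.8, 87.3 and 61.4 (log2 fold change 1.01, limma adjusted p = 0.123), and Kcnj6 had 5.82 and 15.3 against 35.1, 41.8 and 18.5 (log2 fold change 1.56, limma adjusted p = 0.147). For Kcnj6, leaving out control replicate 1 or 2 gave 0.93 or 2.19. Kcnj4, a strong inward rectifier of forebrain neurons, had 159 and 84.9 against 339, 256 and 361 (log2 fold change 1.43, SE 0.32, limma adjusted p = 0.0635). In Kcnj3, Kcnj4, Kcnj6 and Kcnj9 every heterozygous library was above both controls, which is a condition of the naming rule, and none passed. Kcnj5, another gene of that G protein-gated group, had 19.8 and 14.4 against 34.1, 35.6 and 32.1 (log2 fold change 0.96, limma adjusted p = 0.136). Kcnj15 had 15.1 and 2.71 in controls and 29.8, 30.3 and 19.5 in heterozygous libraries (log2 fold change 1.80, limma adjusted p = 0.158), with 2.87 or 0.74 when control replicate 1 or 2 was left out. Kcnj3 shares 31.1% of its exon bases with Gm26794 on the opposite strand, under the same limit as Kcna6.

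Two-pore domain genes, which encode leak channels, had a median log2 fold change of 0.55 over 9 measured, and none passed. Kcnk1 had 158 and 425 normalized counts in controls and 870, 849 and 834 in heterozygous libraries. The heterozygous libraries lay close together and the controls did not. The log2 fold change of 1.71 (SE 0.39) did not pass (limma adjusted p = 0.0665), and leaving out control replicate 1 or 2 gave 0.999 or 2.42. Kcnk9, an acid-sensitive leak channel of neurons, had 134 and 213 against 662, 549 and 297 (log2 fold change 1.49, limma adjusted p = 0.0832). Kcnk3, its close relative, had 17.5 and 34.3 against 57.5, 52.5 and 40.9 (log2 fold change 0.99, limma adjusted p = 0.171), with 0.53 or 1.46 when control replicate 1 or 2 was left out. Groups did not overlap for these 3 and overlapped for the other 6. The 3 are 33.3% of the class, all higher, against 46.7% of all genes tested, 23.4% higher. Kcnk2, a mechanically gated channel, had 751 and 599 in controls and 662, 666 and 643 in heterozygous libraries. The groups overlapped (log2 fold change -0.03, SE 0.15, limma adjusted p = 0.916).

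Calcium- and sodium-activated channels were mixed. All 4 Kcnn genes, which encode small- and intermediate-conductance calcium-activated channels, had all heterozygous libraries below the lower control, and none passed. That placement held for 23.3% of all genes tested. Kcnn4 had 375 and 88.5 normalized counts in controls and 45.8, 54.3 and 41.9 in heterozygous libraries. Its log2 fold change was -1.93 (SE 0.58, limma adjusted p = 0.110), and leaving out control replicate 1 or 2 gave -0.90 or -2.97. Kcnn2 had 753 and 563 against 406, 532 and 362 (log2 fold change -0.60, limma adjusted p = 0.162), with -0.39 or -0.81 when control replicate 1 or 2 was left out. Kcnn3 had 628 and 742 against 620, 571 and 414 (log2 fold change -0.37, limma adjusted p = 0.309). Kcnn1 was at -0.38.

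Kcnma1, the pore of the large-conductance channel opened by calcium and voltage, went the other way. It had 228 and 688 normalized counts in controls and 1323, 1180 and 1096 in heterozygous libraries. Its log2 fold change of 1.59 (SE 0.43) did not pass (limma adjusted p = 0.0893), and leaving out control replicate 1 or 2 gave 0.80 or 2.39. Kcnmb2, an auxiliary subunit of that channel, had 2.33 and 14.4 in controls and 39.4, 18.7 and 18.5 in heterozygous libraries (log2 fold change 1.80, limma adjusted p = 0.187), with 0.69 or 2.91 when control replicate 1 or 2 was left out. The rest of the class did not pass: Kcnmb4 was at 0.11, Kcnt1 at 0.16, Kcnt2 at 0.44 and Kcnu1 at -0.54. Groups overlapped for each of these except Kcnt2, which was higher. Leaving out control replicate 1 turned Kcnmb4 to -0.55 and Kcnt1 to -0.17. Over the 10 genes of the class the median was -0.13 on the log2 scale, and 0.0265 when control replicate 2 was left out.

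**Figure D3:**
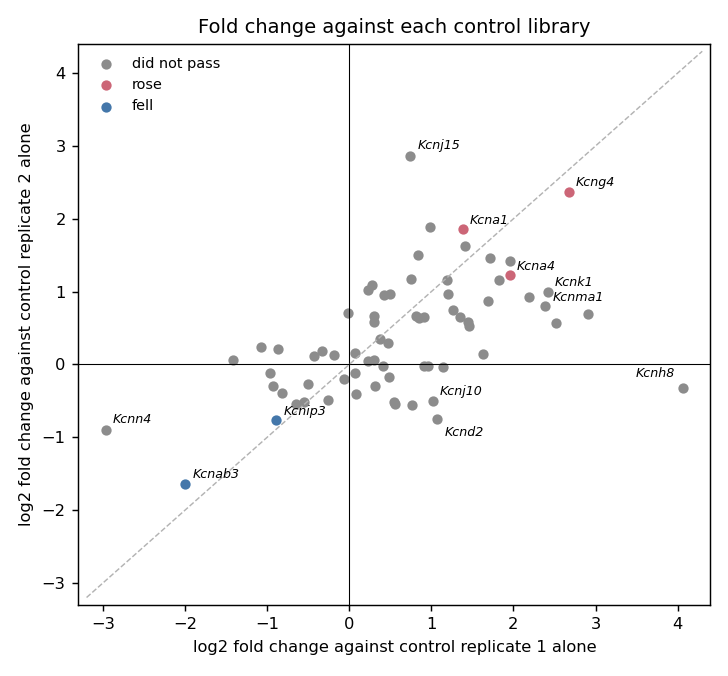
Each point is a potassium channel gene, with its log2 fold change against control replicate 1 alone (without control replicate 2) on the x axis and against control replicate 2 alone on the y axis; the dashed line marks equal values. The called genes shown lie near that line, while Kcnj10, Kcnd2 and Kcnh8 lie on opposite sides of 0 on the 2 axes.

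The choice of control decided the sign for many uncalled genes. Of the 73 genes, 18 changed the sign of their log2 fold change without control replicate 1 and 3 without control replicate 2. Kcnd2, an A-type pore gene, had 439 normalized counts in control replicate 1 and 1553 in control replicate 2, with 895, 978 and 892 in heterozygous libraries. Leaving out control replicate 1 or 2 moved its log2 fold change from 0.16 to -0.75 or 1.07. The 6 called genes stood at 1.22 to 2.37 (rises) and -1.64 and -0.77 (falls) without control replicate 1. Without control replicate 2 they stood at 1.38 to 2.67 and at -1.999 and -0.89. Since their groups did not overlap, the sign could not change when a library was left out.

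Partner and relative pairs were compared as ratios of normalized counts per kilobase of exon within each library, for 4 pairs chosen after their values were seen, of which 3 are given. The ratio of Kcna1 to Kcna2 was 0.0289 and 0.0320 in controls and 0.139, 0.162 and 0.133 in heterozygous libraries. That of Kcnip1 to Kcnip3 was 0.0272 and 0.0328 against 0.0958, 0.0841 and 0.0865. The ratio of Kcnj16 to Kcnj10 was 0.192 and 0.188 against 0.308, 0.247 and 0.328. For Kcnj16 and Kcnj10 the ratios of the controls lay close together where the single genes did not. In these 3 pairs the groups did not overlap. For Kcna1 to Kcna2 and Kcnip1 to Kcnip3 this had to follow, as the single genes went opposite ways without overlap. No test is given, since the pairs were chosen on these values.

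Summed per length over the 64 pore-forming and modifier genes, Kcnj10 made up 17.2% and 34.0% of the level in controls and 25.5%, 28.0% and 23.3% in heterozygous libraries. Kcnc1 made up 21.2% and 16.6% in controls and 16.8% to 20.1% in heterozygous libraries. The share of two-pore domain genes was 5.75% and 5.63% in controls and 9.19%, 8.42% and 9.07% in heterozygous libraries. That of modifier genes was 1.40% and 1.64% against 3.35%, 3.11% and 3.32%. Both of these shares were higher in every heterozygous library than in either control, without a test. For the two-pore domain genes this rested on Kcnk1. That gene made up 1.26% and 2.35% in controls and 5.015%, 4.63% and 5.35% in heterozygous libraries. The share of the remaining two-pore domain genes overlapped between the groups. The share of voltage-gated pore genes was 63.0% and 47.1% in controls and 46.5% to 49.1% in heterozygous libraries, so the second control lay within the heterozygous range.

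Genes of proteins that work with these channels were taken as a list. Of 16 partners listed, 13 were measured, 2 rose, none fell and 11 did not pass, with a median log2 fold change of 1.05. Calls over all genes tested were 1.9% higher and 0.944% lower. Cntnap2, which clusters Shaker channels beside the node of Ranvier, had 164 and 259 normalized counts in controls and 922, 648 and 504 in heterozygous libraries (log2 fold change 1.70, SE 0.31, limma adjusted p = 0.0489). Hcn2, a cation channel opened by hyperpolarization, had 134 and 118 against 274, 239 and 272 (log2 fold change 1.05, SE 0.19, limma adjusted p = 0.0470). Neither partner was called by edgeR (adjusted p = 0.0532 for Cntnap2 and 0.0535 for Hcn2) or after quantile normalization (limma adjusted p = 0.0524 and 0.0508). With a mean of at least 50, Cntnap2 was not called (limma adjusted p = 0.0513).

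Of 15 measured genes of potassium pumps and cotransporters, 1 rose, 1 fell and 13 did not pass, against 1.9% higher and 0.944% lower over all genes. Their median was -0.16, and 0.0845 without control replicate 1. Atp1b2, a glial pump subunit, had 33314 and 22219 normalized counts in controls and 9929, 13025 and 9626 in heterozygous libraries (log2 fold change -1.34, SE 0.23, limma adjusted p = 0.0442).

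Markers of cell types also differed between the groups. Calls over all genes tested were 1.9% higher and 0.944% lower. The lists share some genes: Fgfr3 is among the astrocyte and the progenitor falls, and Atp1b2 among the astrocyte and the pump falls. In bulk RNA, fewer cells of a type and less RNA per cell cannot be told apart. Of 20 neuron markers 11 rose and none fell, with a median log2 fold change of 1.20, and their summed level was 28256 and 37512 normalized counts in controls and 53422 to 70979 in heterozygous libraries. Of 15 astrocyte markers 3 fell and none rose (median -0.43), with summed levels of 195180 and 254800 in controls and 145220 to 169110 in heterozygous libraries. Of 15 oligodendrocyte lineage markers 2 fell and none rose (median -1.27), at 65954 and 93721 against 61102 to 77338. Of the 19 progenitor markers 3 fell and none rose (median -0.47), while their summed level went the opposite way, 181380 and 209850 in controls and 233500 to 261720 in heterozygous libraries. Among 9 measured of 14 microglia markers and 16 measured of 18 vascular and mural cell markers none passed, with medians of 1.16 and 0.45. Leaving out control replicate 1 or 2 gave microglia medians of 0.55 or 1.94. Their summed levels were 495 to 612 and 3761 to 4953 in controls and 461 to 901 and 3607 to 4613 in heterozygous libraries. None of the markers in these lists was at 0 in all 5 libraries. Heterozygous replicate 3 was the lowest of its group for 51 of the 73 channel genes and had the lowest neuron marker sum of the 3. The same share over all genes tested was not computed, so whether this is particular to the channel genes is not known. The part of these markers in the channel results was not tested.

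**Figure D4:**
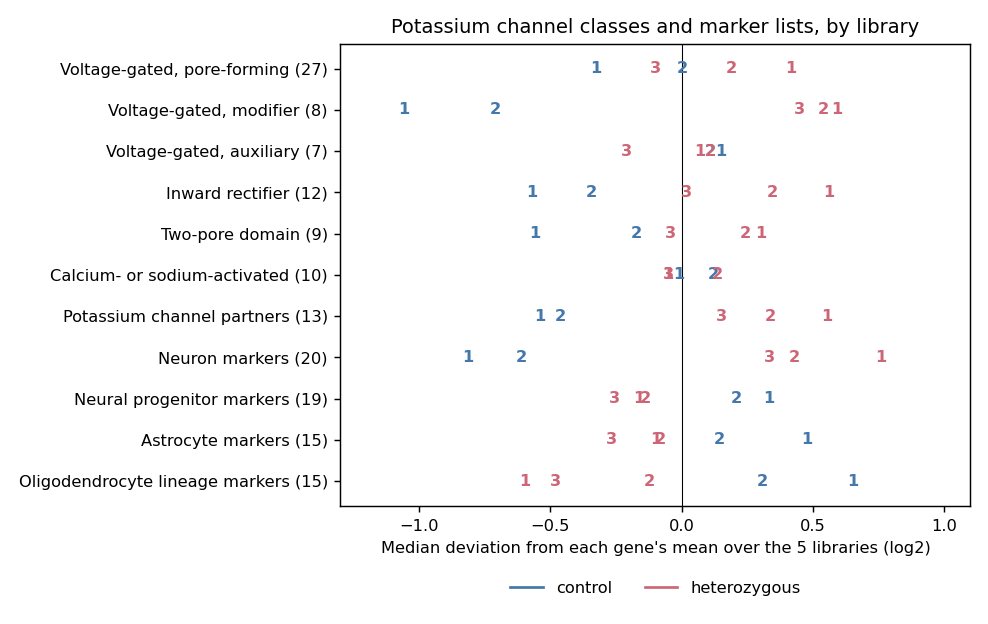
For each class or list (number of measured genes in parentheses), the median over its genes of the deviation from the gene's own mean over the 5 libraries, in log2, with a digit for each library's replicate number. Modifier subunits, inward rectifiers, two-pore domain genes, partners and neuron markers have both controls left of all heterozygous libraries. Voltage-gated pore, auxiliary and calcium- or sodium-activated classes overlap.

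The authors' deposited table, made from the same libraries, called 15 of the 73 genes higher and 5 lower at an adjusted p under 0.05. Of all tested genes it called 6.7% higher and 6.36% lower. All 6 genes called by limma were among those 20. In the authors' deposited table the log2 fold change of Kcng4 was 2.24 and that of Kcnab3 was -1.65.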

How the data were processed

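RNA was sequenced from 3 heterozygous and 2 control neurosphere libraries. The tools STAR and DESeq2 and the build mm10 come from the submitters' processing notes. Versions, annotation, counting tool and strand setting: not given in the sources used here. Each deposited signal value of a library is a read count divided by 1 size factor, and the deposited mean is that of the 5 libraries. The deposited log2 fold change, its standard error and Wald statistic (a score) and the deposited p-values are the authors' own. Whole reads were recovered from the step of each library, with 100% of values whole within 0.001 read. All 5 library columns were used.

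Genes with a mean of at least 10 (16411) were tested two-sided with limma 3.58.1 (R 4.3.3, intensity trend) on log2(normalized count + 1), heterozygous against control, with Benjamini-Hochberg adjustment over all of them. On this scale fold changes of low genes depend on the added 1 and are means of log values, so they can lie below or above the ratio of group means. The method was tested on simulated counts. edgeR 4.0.16 and DESeq2 1.42.0 on the recovered reads, other pseudocounts and filters, quantile normalization, a replicate block and leaving out each library were alternatives. Subfamilies follow the symbols. Exon lengths and coordinates are from GENCODE M21 (mm10). The rule for named genes took every member past the threshold, the 3 smallest p and 2 highest levels per length in each of 6 classes, and members with non-overlapping groups and a log2 fold change of at least 1 in size. Called genes and the 3 smallest p of the partner and pump lists completed the rule. Some genes it took are not reported here. Kcna2, Kcna6, Kcnd2, Kcnh8, Kcnj2, Kcnj11, Kcnj12, Kcnj14, Kcnmb4, Kcnt1, Kcnt2, Kcnu1 and the other Kcnab and Kcnn genes were named after their values were seen. The members and lists were chosen with earlier results of these data known.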

Additional observations from a re-analysis of the deposited data

How the results depend on the processing

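Counts of called genes depended on the test and on single libraries. Higher and lower calls among the potassium channel genes (4 and 2) became 7 and 2 with no filter on low values, 15 and 5 with DESeq2, 1 and 0 without the intensity trend, and 0 and 0 with the replicate block; all-gene counts (311 and 155) became 1174 and 1151 with DESeq2, 54 and 21 without the trend, and 0 and 1 with the block. Leaving out 1 library gave 0 to 31 higher and 0 to 10 lower members, and 0 to 4465 and 0 to 3855 genes. Without a heterozygous library 2 against 2 remain. Same-numbered libraries did not deviate together (correlations 0.028 and -0.040), so the block pairs only numbers. With 1 control the lone library is assumed to vary like the heterozygous ones.

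Class and list medians kept their sign except where named. With a mean of at least 50, medians were -0.37 (calcium- and sodium-activated), 0.82 (partners) and 0.0806 (microglia); the partners' median was 0.59 with no filter. The modifier median was 1.14 with a pseudocount of 5, and the calcium- and sodium-activated median -0.0105 with the block. Leaving out 1 library gave 0.24 to 0.60 over all members, 1.18 to 1.58 (modifier), 0.15 to 0.58 (voltage-gated pore), 0.19 to 0.56 (two-pore domain), -0.23 to 0.0265 (calcium- and sodium-activated), -0.34 to 0.0845 (pumps), -0.72 to -0.33 (astrocyte), -1.301 to -0.59 (oligodendrocyte lineage), 0.55 to 2.06 (microglia) and -0.57 to 0.95 (vascular). The auxiliary median, -0.03, was 0.0751 without heterozygous replicate 3 and with the block. Kcnj10 went to -0.50 and Kcnk2 to 0.13 without control replicate 1, against 1.02 and -0.19 without control replicate 2; the cause was not tested. Of the 41 genes the naming rule took, under 14 alternatives, these were the only values whose sign changed. Most of those genes had groups that did not overlap, so leaving out a library could not change their sign. Over all 73 members, 18 changed sign without control replicate 1 and 3 without control replicate 2.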
